A study of Mus musculus with 9 samples.

Results

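Bdnf, Ntf3, Gdnf, Ntrk2, Ntrk3, Ngfr, Gfra1 and Ret, the neurotrophin and GDNF ligands and receptors of the retina considered here, were followed through RNA-seq of whole mouse retina. They were taken by gene symbol, from a list chosen with earlier results of these data known. Each of the 8 matched a gene among the 22337 measured. The libraries came from 3 groups at postnatal day 28 (P28), with 3 libraries each. WT retinas were from untreated C57 BL/6J mice. The NS-treated and MSC-EVs-treated retinas were from rd10 mice, whose rods degenerate because of a mutation in a rod phosphodiesterase subunit. Both eyes of these mice received 1 µL of normal saline (NS) or of extracellular vesicles from human umbilical cord mesenchymal stem cells (MSC-EVs) in the vitreous at P14 and again at P21. The paper states that rd10 littermates received either vesicles or saline. The WT mice were not injected and came from another supplier, so genotype, injection and source cannot be told apart between WT and either rd10 group. The labels do not say whether a library is 1 mouse or a pool.

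Neurotrophins are secreted growth factors that keep neurons alive and shape their synapses. BDNF binds the receptor tyrosine kinase TrkB (Ntrk2) and neurotrophin-3 (Ntf3) prefers TrkC (Ntrk3), while p75NTR (Ngfr) binds all neurotrophins and, as a proneurotrophin receptor, can also signal cell death. GDNF acts through a coreceptor anchored in the membrane, GFRα1 (Gfra1), that brings it to the kinase Ret. In the retina, TrkB and TrkC are known from Müller glia and inner neurons, and both BDNF and GDNF have long been studied as factors that protect photoreceptors and ganglion cells.

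The libraries held 19491717 to 62532343 counts, MSC-EVs replicate 3 being the deepest. MSC-EVs replicates 1 and 2 stood apart from the other 7 libraries by their Y-linked genes, which had 4379 and 4421 counts against 7 to 23. Only MSC-EVs-treated libraries carried this signal of male tissue. Sex and treatment therefore cannot be fully told apart in the comparisons with that group. Marker genes of rods, the main cell type of the tissue, summed to 87200 to 93400 CPM (counts scaled to the TMM-adjusted size of the library) in WT. They summed to 18000 to 25700 CPM with NS and to 18600 to 25800 CPM with MSC-EVs. Compared with WT, the NS-treated group had all 14 rod markers lower, with 10 of 11 Müller glia markers and all 11 microglia markers higher. The median log2 fold change over the markers was 0.84 for Müller glia, 1.12 for astrocytes, 0.19 for bipolar cells, 0.23 for amacrine cells and 0.30 for retinal ganglion cells. No marker of these lists was at 0 in a group. In MSC-EVs-treated rd10 against WT the medians were 0.726 for Müller glia and 0.456 for astrocytes. They were 0.01 for bipolar cells, 0.134 for amacrine cells and 0.111 for retinal ganglion cells. Rod, Müller glia and microglia markers differed from WT in both rd10 groups, as did most members. The part of these marker levels in the results was not tested. In such bulk libraries, fewer cells of a type and less RNA per cell cannot be told apart.

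On GRCm38, the GENCODE M21 annotation placed Bdnf on chromosome 2 (109674700 to 109727007, plus strand), Ntf3 on chromosome 6 (126101412 to 126166910, minus strand) and Gdnf on chromosome 15 (7810846 to 7837575, plus strand). Ntrk2 lay on chromosome 13 (58806569 to 59133970, plus strand), Ntrk3 on chromosome 7 (78175959 to 78738012, minus strand) and Ngfr on chromosome 11 (95568818 to 95587735, minus strand). Gfra1 lay on chromosome 19 (58235604 to 58455909, minus strand) and Ret on chromosome 6 (118151745 to 118197718, minus strand). All 8 are protein-coding, and the values below are sums over all exons of all their transcripts. An antisense gene, Gm45346, shared 896 bases, 14.4% of the exonic bases, with Bdnf. For Gfra1, the antisense gene Gm16277 shared 416 bases, or 7.6%. Whether counting used the strand is not stated, so reads of these antisense genes cannot be told apart from those of Bdnf and Gfra1. The other 6 members overlapped no exon of another gene.

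The RefSeq promoter table (GRCm38.p6) held 14 start sites for 6 of the 8 members. Ntf3, the ligand with the largest change, Ntrk2, the receptor with the highest level, and Bdnf, the ligand of Ntrk2, are shown, since all 3 were higher in rd10 than in WT. The 250 bases before each start were searched on both strands for TGACGTCA (CRE), TGANTCA (AP-1), TTCNNNGAA (STAT) and GCGNGGGCG (EGR), which were present in 1.55%, 6.75%, 7.02% and 4.7% of all 32851 promoters of that length. Of the 7 Bdnf starts, the 2 printed are those that held a match. Capitals mark a match, and bases within an annotated exon were left out of the printed run.
Ntf3 start 1, chr6:126166911-126166994, minus strand: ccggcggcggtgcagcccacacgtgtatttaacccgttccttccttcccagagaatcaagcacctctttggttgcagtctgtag
Ntf3 start 2, chr6:126164961-126165210, minus strand: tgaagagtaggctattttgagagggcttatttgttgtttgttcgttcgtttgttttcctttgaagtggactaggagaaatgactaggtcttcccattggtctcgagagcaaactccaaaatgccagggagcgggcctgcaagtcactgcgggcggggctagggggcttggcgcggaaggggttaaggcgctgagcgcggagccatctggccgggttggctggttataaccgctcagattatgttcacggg
Ntrk2, chr13:58806319-58806568, plus strand: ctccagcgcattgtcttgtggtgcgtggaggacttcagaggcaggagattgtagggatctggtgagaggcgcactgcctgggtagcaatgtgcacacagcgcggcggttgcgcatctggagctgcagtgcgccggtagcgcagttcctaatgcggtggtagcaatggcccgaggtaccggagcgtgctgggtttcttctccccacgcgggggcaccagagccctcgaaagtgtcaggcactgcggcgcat
Bdnf start 1, chr2:109674450-109674699, plus strand: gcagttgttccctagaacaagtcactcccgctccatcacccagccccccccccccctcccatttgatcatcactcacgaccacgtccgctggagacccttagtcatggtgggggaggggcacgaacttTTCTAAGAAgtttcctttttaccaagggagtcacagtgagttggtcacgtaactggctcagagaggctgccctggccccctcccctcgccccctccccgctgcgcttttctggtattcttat
Bdnf start 2, chr2:109676782-109677031, plus strand: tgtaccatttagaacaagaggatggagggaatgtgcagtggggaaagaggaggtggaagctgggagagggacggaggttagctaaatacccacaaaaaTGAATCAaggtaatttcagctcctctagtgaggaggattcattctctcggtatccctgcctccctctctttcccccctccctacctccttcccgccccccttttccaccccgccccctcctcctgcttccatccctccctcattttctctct
Matches were found before 2 of the 14 starts, a STAT match before the first Bdnf start and an AP-1 match before the second. The windows before both Ntf3 starts and the Ntrk2 start held no match to these letters. No motif was shared between members.

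Per length, in FPKM, the members spanned more than 2 orders of magnitude. In WT, Ntrk2 was at 13.2 ± 0.679 FPKM (SD, n = 3), Ret at 12.6 ± 0.49, Gfra1 at 11.7 ± 0.227 and Ngfr at 10.4 ± 0.688. These receptors, from both ligand families, lay close together. Ntrk3 followed at 3.9 ± 0.2 FPKM and Bdnf at 1.92 ± 0.269. Gdnf and Ntf3 were the lowest, at 0.14 ± 0.0436 and 0.107 ± 0.0416 FPKM. Neighbours in this order overlapped between libraries for Ntrk2 and Ret and for Gdnf and Ntf3, and for no other pair of neighbours in WT. In NS-treated rd10 the order was Ntrk2 at 23.6 ± 3.14, Ret at 20.5 ± 1.48, Gfra1 at 16.5 ± 0.803, Ngfr at 10.7 ± 0.333, Ntrk3 at 5.01 ± 0.182, Bdnf at 2.99 ± 0.698, Ntf3 at 0.923 ± 0.25 and Gdnf at 0.193 ± 0.0321 FPKM. Ntf3 thus stood above Gdnf in rd10, without overlap between their libraries, and the other places did not change. The order in MSC-EVs-treated rd10 was that of NS-treated rd10.

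**Figure D1:**
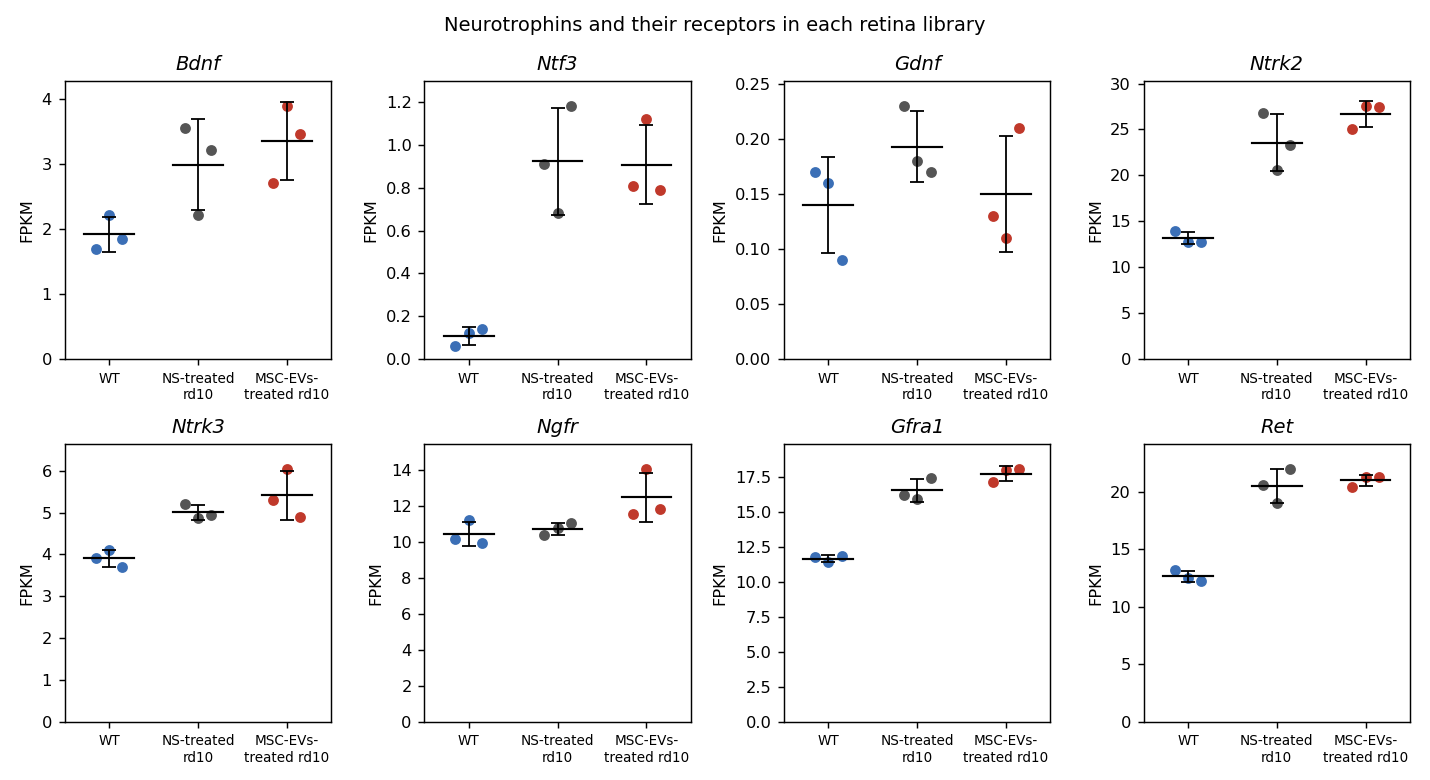
FPKM (y axis, linear, from 0) of the 8 members in each library of the 3 groups; points are libraries, the long bar is the mean and the error bar the SD of 3 libraries. Ntf3 goes from 0.06 to 0.14 FPKM in WT to 0.68 to 1.18 in NS-treated rd10, and Ntrk2 from 12.74 to 13.94 to 20.58 to 26.84, while Ngfr and Gdnf show no such step between these 2 groups.

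The comparison of NS-treated rd10 with WT asked which of these genes differ in the degenerating retina. Of the 8 members, 6 were higher and none was lower (edgeR's quasi-likelihood test, Benjamini-Hochberg adjusted p under 0.05 over the 14644 genes tested). Over all genes tested, 31.2% were higher and 30.1% lower. The median log2 fold change was 0.43 over the members and 0.01 over all genes. One member, Ntf3, passed with a rise of at least 2-fold, as did 9.16% of all genes. A change without overlap between libraries was common in this comparison, since 66.9% of all genes had one.

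Among the ligands, Ntf3, which feeds TrkC, was nearly silent in WT. It had 2, 4 and 4 counts in the WT libraries and 35, 18 and 33 in the NS-treated libraries. At the scale of CPM this was 0.0897, 0.179 and 0.2 against 1.18, 0.882 and 1.51. Every NS-treated library lay above every WT library. The log2 fold change was 2.90 ± 0.443 (SE, n = 3 against 3, adjusted p = 0.000127). With so few counts in WT, the ratio of the summed counts, 86 against 10, each scaled to library size, was 7.73, with a 95% interval of 4.01 to 16.7 that covers counting error only. The direction did not depend on a single library, but a pseudocount of 1 on FPKM shrank the log2 difference to 0.79.

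Bdnf, the ligand of TrkB, was at 7.4, 9.62 and 8.11 CPM in WT and, after NS, at 13.8, 8.43 and 12.2. Replicate 2 of the NS-treated group lay within the WT range, so the groups overlapped. The log2 fold change of 0.46 ± 0.176 passed narrowly (adjusted p = 0.0416). It did not pass without WT replicate 1 (0.38, adjusted p = 0.132), WT replicate 3 (0.44, 0.106), NS replicate 1 (0.29, 0.164) or NS replicate 3 (0.42, 0.107). Of all the members that rose, Bdnf was the one whose call rested on single libraries.

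Gdnf, the ligand of GFRα1 and Ret, stayed close to the limit of detection. Its counts were 15, 14 and 7 in WT and, after NS, 24, 13 and 13, and the libraries overlapped in CPM. The log2 fold change was 0.31 ± 0.377 (adjusted p = 0.496), with a 95% interval of -0.51 to 1.13. Changes anywhere within that interval remain compatible with these libraries.

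Among the neurotrophin receptors, Ntrk2, which encodes TrkB, had the largest rise. Its level was 95.4, 86.3 and 86 CPM in WT and 154, 122 and 132 CPM after NS. The gap between the groups was wider than the spread within WT but not than that within the NS-treated group. The rise was 0.61 ± 0.086 on the log2 scale (adjusted p = 0.000111), or 1.52-fold. Ntrk3, which encodes TrkC, was at 40.1, 42.8 and 39.2 CPM in WT and at 55.3, 50 and 48.2 CPM after NS. Its rise was smaller, with a log2 fold change of 0.33 ± 0.0737 (adjusted p = 0.00207), and its libraries did not overlap either.

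Ngfr, which encodes p75NTR, was the receptor that did not share this direction. It was at 37.9, 41.4 and 37.1 CPM in WT and at 34.4, 35.4 and 36.1 CPM after NS, so that each NS-treated library lay a little under all WT libraries. The log2 fold change was -0.14 ± 0.0703 and did not pass (adjusted p = 0.102), with a 95% interval of -0.29 to 0.01. At the FPKM scale the difference had the opposite sign, 0.04, and did not pass either (limma, adjusted p = 0.675).

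The pair of genes that form the GDNF receptor both rose. Ret, the kinase, was at 70.9, 66.4 and 66.4 CPM in WT and at 98.8, 91.2 and 104 CPM after NS. Its log2 fold change of 0.53 ± 0.0629 had the lowest adjusted p of the members, 1.73e-05. Gfra1, the coreceptor, was at 53.2, 51.1 and 47.8 CPM in WT and at 65.2, 66.1 and 70 CPM after NS. The log2 fold change was 0.40 ± 0.0628 (adjusted p = 0.000157). For both genes every NS-treated library lay above every WT library.

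**Figure D2:**
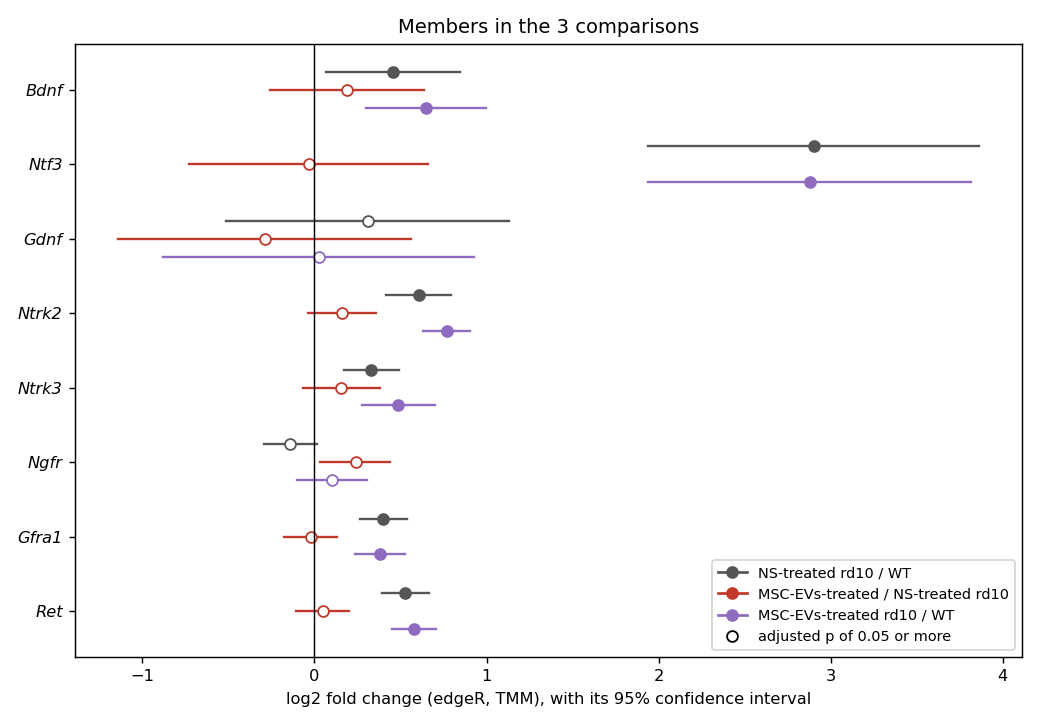
Log2 fold change (x axis) of the 8 members in the 3 comparisons, with lines for the 95% confidence interval, filled circles for adjusted p under 0.05 and open circles for the rest. Filled circles stand for 6 members in both comparisons with WT and for none between the rd10 groups, and Ntf3 lies far to the right at 2.90 and 2.88.

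How far the members rose depended on what the libraries were scaled to. The TMM factors treat the typical gene as the reference. Scaling instead to 31 marker genes of bipolar, amacrine and retinal ganglion cells placed the median of all genes at -0.21 in NS-treated rd10 against WT. Relative to these inner retinal neuron markers, 3 members were still higher, namely Ntf3, Ntrk2 and Ret. Bdnf (0.23, adjusted p = 0.222), Ntrk3 (0.12, adjusted p = 0.311) and Gfra1 (0.19, adjusted p = 0.0684) did not pass at that scale. Ngfr passed as lower, with a log2 fold change of -0.35 (adjusted p = 0.00489). On the FPKM scale, which the authors set by library total, the median of all genes was 0.137 to 0.174, and the same 6 members passed as higher.

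**Figure D3:**
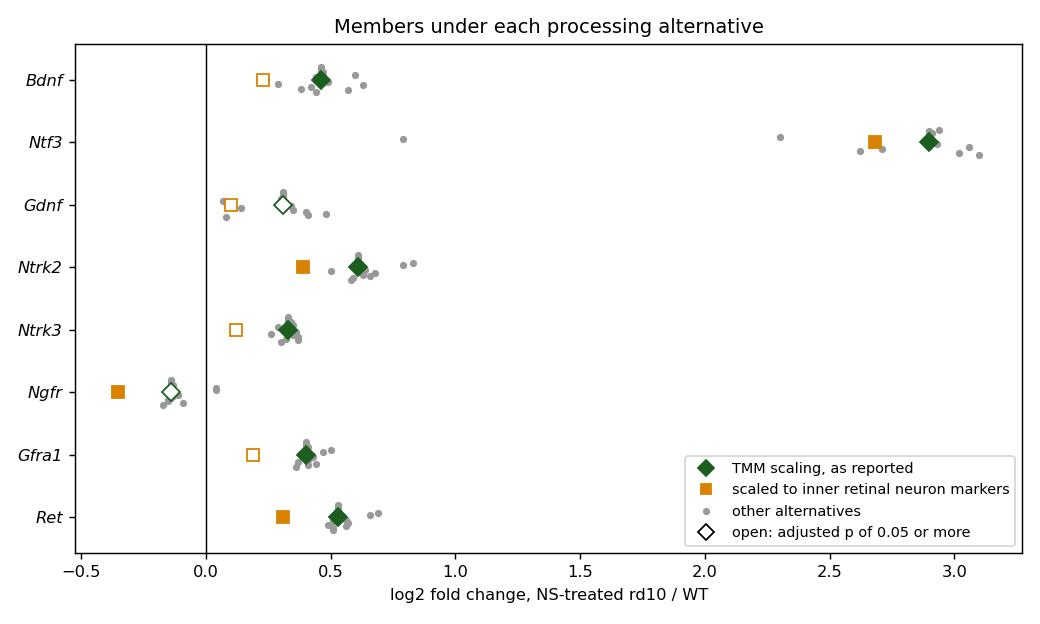
Log2 fold change of each member in NS-treated rd10 against WT (x axis) with TMM scaling (diamonds), with scaling to inner retinal neuron markers (squares) and under the other alternatives (grey points); open symbols have an adjusted p of 0.05 or more. Scaling to inner retinal markers moves all 8 members to the left, to 0.39 for Ntrk2 and to -0.35 for Ngfr, and the grey point of Ntf3 at 0.79 is the one with a pseudocount of 1 on FPKM.

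The comparison of MSC-EVs-treated with NS-treated rd10 asked whether the vesicles changed these genes. None of the 8 members passed with edgeR, and none with DESeq2, edgeR's exact test or limma on FPKM. At an unadjusted p under 0.05, 1 of the 8 members was found with edgeR's quasi-likelihood test, against 20.2% of all genes in either direction. Of all 14765 genes tested, 0.914% were higher and 0.251% lower. The median log2 fold change of the members was 0.10, and that of all genes was 0.00.

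The 1 member with the lower p was Ngfr. It was at 34.4, 35.4 and 36.1 CPM in NS-treated and at 38.3, 46.7 and 39.6 CPM in MSC-EVs-treated rd10. Each MSC-EVs-treated library lay above the NS-treated ones, as in 26.2% of all genes for either direction. The log2 fold change of 0.24 ± 0.091 did not pass the adjustment over all genes (adjusted p = 0.185). Without the pair of libraries with Y-linked counts it was 0.18 (adjusted p = 0.41), a value from 1 MSC-EVs-treated library that is assumed to vary like the NS-treated ones.

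The other members differed by less than the spread between libraries. Ntrk2 was at 148, 147 and 159 CPM in MSC-EVs-treated rd10, with a log2 fold change of 0.16 ± 0.0884 and a 95% interval of -0.04 to 0.36. Bdnf was at 10.5, 15.1 and 13.6 CPM, with a log2 fold change of 0.19 ± 0.196 and an interval of -0.26 to 0.64. Ntrk3 was at 56.6, 64.3 and 49.9 CPM, with a log2 fold change of 0.16 ± 0.0999 and an interval of -0.07 to 0.38. In all 3 genes the MSC-EVs-treated and the NS-treated libraries overlapped. Ret and Gfra1 had the narrowest intervals. Ret was at 97.9, 102 and 103 CPM, with a log2 fold change of 0.05 and an interval of -0.11 to 0.20. Gfra1 was at 66, 62.9 and 68.3 CPM, with a log2 fold change of -0.02 and an interval of -0.18 to 0.13. For these genes of the GDNF receptor, differences beyond these bounds lie outside the interval, whereas those within it remain compatible with these libraries.

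The rare ligands were less well measured. Ntf3 had 25, 34 and 66 counts in MSC-EVs-treated rd10, or 1.04, 1.45 and 1.03 CPM. The ratio of summed and scaled counts to NS-treated rd10 was 0.935, with a 95% interval of 0.705 to 1.25 for counting error. Gdnf had 11, 9 and 48 counts, and its ratio was 0.875 with an interval of 0.598 to 1.29. The 48 counts were those of the deepest library, in which the level was 0.746 CPM against 0.46 and 0.384 in the other two. Without that library the log2 fold change of Gdnf was -0.70 (adjusted p = 0.435) in place of -0.29 (adjusted p = 0.715).

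Against WT, MSC-EVs-treated rd10 had 6 of 8 members higher and none lower, with 28.3% and 27.2% of all 14623 genes tested higher and lower. This comparison shares its WT libraries with that of NS-treated rd10, so the 2 are not independent. The log2 fold changes were 2.88 ± 0.422 for Ntf3, 0.77 ± 0.0618 for Ntrk2, 0.65 ± 0.157 for Bdnf, 0.58 ± 0.0565 for Ret, 0.49 ± 0.0949 for Ntrk3 and 0.38 ± 0.0654 for Gfra1. All 6 had libraries without overlap, as had 65.1% of all genes in either direction. Bdnf, which overlapped with WT in the NS-treated group, did not overlap here, and its adjusted p was 0.00586. Gdnf (0.02, adjusted p = 0.965) and Ngfr (0.10, adjusted p = 0.363) did not pass. Scaled to inner retinal neuron markers, the same 6 members passed as higher in this comparison, with the median of all genes at -0.117. Leaving out both libraries with Y-linked counts kept 1 MSC-EVs-treated library, and 6 members passed in that fit, which takes its spread from the WT libraries alone.

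Counts and FPKM together give the transcript length with which the authors divided, since FPKM is the count scaled to a kilobase of transcript and to the library total. Of 999 genes that have 1 transcript in GENCODE M21 and at least 1 FPKM in all libraries, 977 (97.8%) returned that transcript's length to within rounding and 1 base. Ngfr, with 1 transcript, returned 3445 to 3447 bases in all 9 libraries. For a gene with several transcripts the length is a mean weighted by their estimated shares, so it differs between libraries where those shares differ. This measure was taken up after the values had been seen.

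TrkC and TrkB are each made as full-length kinases and as truncated receptors from alternative transcripts, and their lengths differed between libraries. For Ntrk3 the length was 9474, 9729 and 9743 bases in WT, 11005, 10767 and 10246 in NS-treated and 11109, 11027 and 10466 in MSC-EVs-treated rd10. Every rd10 library was above every WT library. The NS-treated mean was 10.6% longer than that of WT, without overlap, as in 10.8% of the 11856 genes with at least 1 FPKM in either direction. The exact permutation test gave p = 0.1 (two-sided), the smallest that 3 against 3 allows, and none of the 24 such comparisons could reach a lower value. Against WT, MSC-EVs-treated rd10 was 12.6% longer, where 15.5% of genes did not overlap.

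For Ntrk2 the length was 6317, 6318 and 6185 bases in WT, 5945, 6190 and 5978 in NS-treated and 6127, 5531 and 5975 in MSC-EVs-treated rd10. The MSC-EVs-treated libraries were all under WT, with a mean difference of -6.3% (exact permutation p = 0.1), while NS replicate 2 overlapped with WT. Gfra1 was at 4172, 4176 and 3721 bases in WT, 4166, 4342 and 4220 in NS-treated and 3993, 3619 and 3887 in MSC-EVs-treated rd10. It was shorter in every MSC-EVs-treated than in any NS-treated library, with a mean difference of -9.66%, as in 15.8% of genes in either direction (exact permutation p = 0.1). The longest GENCODE transcripts had 19703 bases for Ntrk3, 8744 for Ntrk2 and 4641 for Gfra1. Which transcripts differed cannot be read from a mean length. Ret and Bdnf differed between groups by less than 1% in every comparison.

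**Figure D4:**
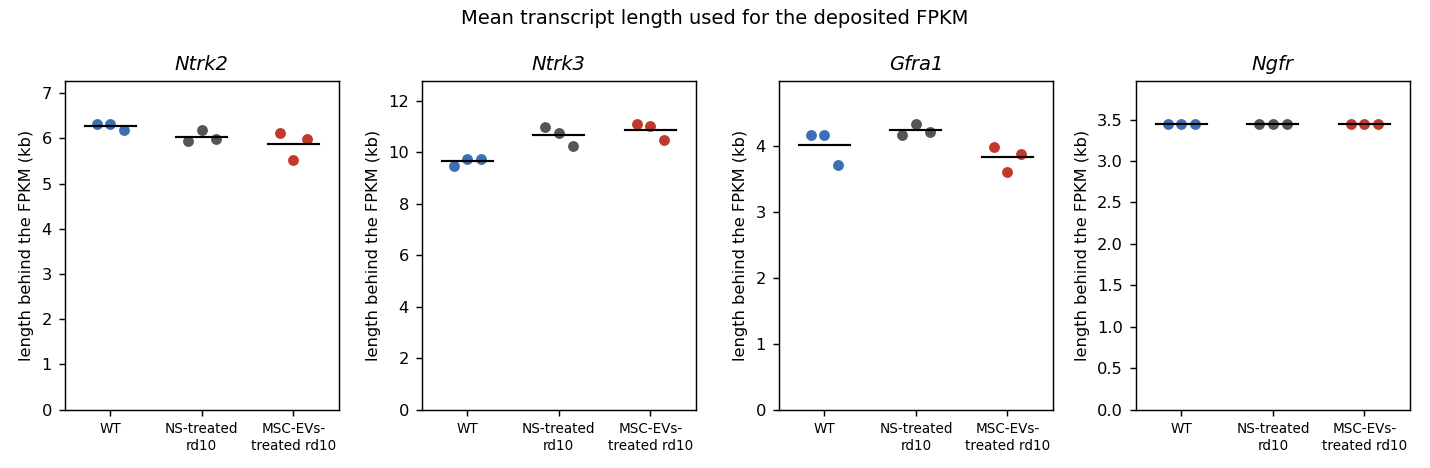
Mean transcript length behind the FPKM in kilobases (y axis, linear, from 0) of Ntrk2, Ntrk3, Gfra1 and Ngfr in each library; points are libraries and bars are means of 3. Ntrk3 is longer in all 6 rd10 libraries than in the 3 of WT, MSC-EVs-treated Gfra1 is shorter than NS-treated Gfra1, and Ngfr, with 1 transcript, is flat.

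Ratios of FPKM between members within a library also differed between WT and rd10. The ratio of Ntrk2 to Ngfr was 1.37, 1.14 and 1.29 in WT, 2.59, 1.91 and 2.12 in NS-treated and 2.17, 1.96 and 2.32 in MSC-EVs-treated rd10. That of Ntrk2 to Ntrk3 was 3.11 to 3.57 in WT and 4.23 to 5.6 over both rd10 groups. Ret exceeded Gfra1 by 1.04 to 1.12 times in WT and by 1.18 to 1.27 times in rd10. For the ligands, Bdnf exceeded Ntf3 by 13.1 to 28.3 times in WT and by 2.73 to 4.38 times in rd10, with few Ntf3 counts behind the WT values. In all 4 ratios of FPKM the rd10 libraries were separate from the WT libraries. These ratios also carry the transcript lengths given above, which differed between libraries for Ntrk2, Ntrk3 and Gfra1. By counts, Ntrk2 to Ntrk3 and Ret to Gfra1 overlapped between WT and rd10. Ntrk2 and Ntrk3 had 2127 and 895 counts in WT replicate 1, and 3441 and 1506 in MSC-EVs replicate 2. Ret and Gfra1 had 1327 and 956 in WT replicate 3, and 1862 and 1349 in NS replicate 2. Between the NS-treated and MSC-EVs-treated groups the FPKM ratios overlapped in 3 of the 4 pairs. For Ret to Gfra1 the groups lay side by side, at 1.19 to 1.27 with NS and 1.18 to 1.19 with MSC-EVs. The Gfra1 length was shorter in every MSC-EVs-treated library than in any NS-treated library. By counts the groups overlapped in this ratio, and NS replicate 2 had the lowest ratio of the rd10 libraries.

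The other genes of these pathways were 149 genes in 7 lists. In NS-treated rd10 against WT, 71 of the 138 tested were higher (51.4%) and 21 lower (15.2%), with a median log2 fold change of 0.21, beside 31.2% higher, 30.1% lower and a median of 0.01 over all genes. Scaled to inner retinal neuron markers, 34 were higher and 41 lower, and on FPKM with a pseudocount of 1, 85 were higher and 11 lower, so the split between directions depended on the scaling. In MSC-EVs-treated against NS-treated rd10, 3 of 141 were higher (2.13%) and none lower, beside 0.914% and 0.251% of all genes. Of the 141, 32 had an unadjusted p under 0.05 in edgeR's quasi-likelihood test, close to the 20.2% of all genes. DESeq2 passed 14 of the 141 and 930 of all genes. In MSC-EVs-treated rd10 against WT, 67 of 138 were higher (48.6%) and 17 lower (12.3%), beside 28.3% and 27.2% of all genes.

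Of the other ligands, 3 of 7 were abundant enough to test against WT. Cdnf, an ER-resident neurotrophic factor named for dopamine neurons, was the 1 that changed in NS-treated rd10. It was at 5.47, 5.86 and 5.15 CPM in WT and at 2.4, 2.21 and 2.2 CPM after NS, with a log2 fold change of -1.27 ± 0.169 (adjusted p = 4.13e-05). Nrtn, the ligand of GFRα2, and Manf did not pass. Ntf5, Artn, Pspn and Gdf15 were too low to test against WT. Artn, the ligand of GFRα3, could be tested between the rd10 groups and did not pass (-0.41 ± 0.532, adjusted p = 0.709).

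Of the other receptors and coreceptors, 7 of 12 tested rose with NS-treated rd10 against WT and 1 fell, beside 31.2% and 30.1% of all genes. The sortilin family, whose members bind proneurotrophins or sort neurotrophins and their receptors, held 4 of the rises. Sorl1 was at 155, 144 and 137 CPM in WT and at 338, 287 and 323 CPM after NS, with a log2 fold change of 1.12 ± 0.0723 (adjusted p = 1.04e-07). Sorcs2, Sorcs1 and Sorcs3 rose by 0.68, 0.63 and 0.38, and Sort1, sortilin itself, did not pass (-0.07, adjusted p = 0.401). Scaled to inner retinal neuron markers, Sorl1 (0.91), Sorcs2 (0.46) and Sorcs1 (0.41) still passed as higher, Sorcs3 did not pass (0.16, adjusted p = 0.371) and Sort1 passed as lower (-0.28, adjusted p = 0.00708). The libraries of Sorcs3 overlapped, and it did not pass without replicate 1 or 3 of WT or of NS (0.27 to 0.41, adjusted p = 0.0654 to 0.142). The coreceptors of the GDNF family went in different directions. Gfra2, for neurturin, was lower with a log2 fold change of -0.53 ± 0.0993, and Gfra4, for persephin, was higher with 0.57 ± 0.105. Lingo1, a partner of p75NTR, rose by 0.56 and Nradd, a relative of p75NTR, by 0.85. At the scale of inner retinal neuron markers Nradd did not pass (0.65, adjusted p = 0.103), nor did it with DESeq2 (0.85, adjusted p = 0.0617) or without replicate 2 or 3 of WT or 1 or 2 of NS (0.61 to 0.89, adjusted p = 0.0677 to 0.141). Between the rd10 groups none of these receptors passed in the pairwise fit. With all 9 libraries in 1 fit Gfra4 (-0.41, adjusted p = 0.0353) and Ncam1, a GDNF-binding adhesion molecule (-0.21, adjusted p = 0.0329), passed as lower, and Ncam1 did so with DESeq2 (adjusted p = 0.0331). In the pairwise fit Gfra4 had the lowest adjusted p among them, 0.0908, with a log2 fold change of -0.40 ± 0.109, and went from 12.7, 13.7 and 13.9 CPM to 10.4, 9.48 and 10.4 CPM.

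**Figure D5:**
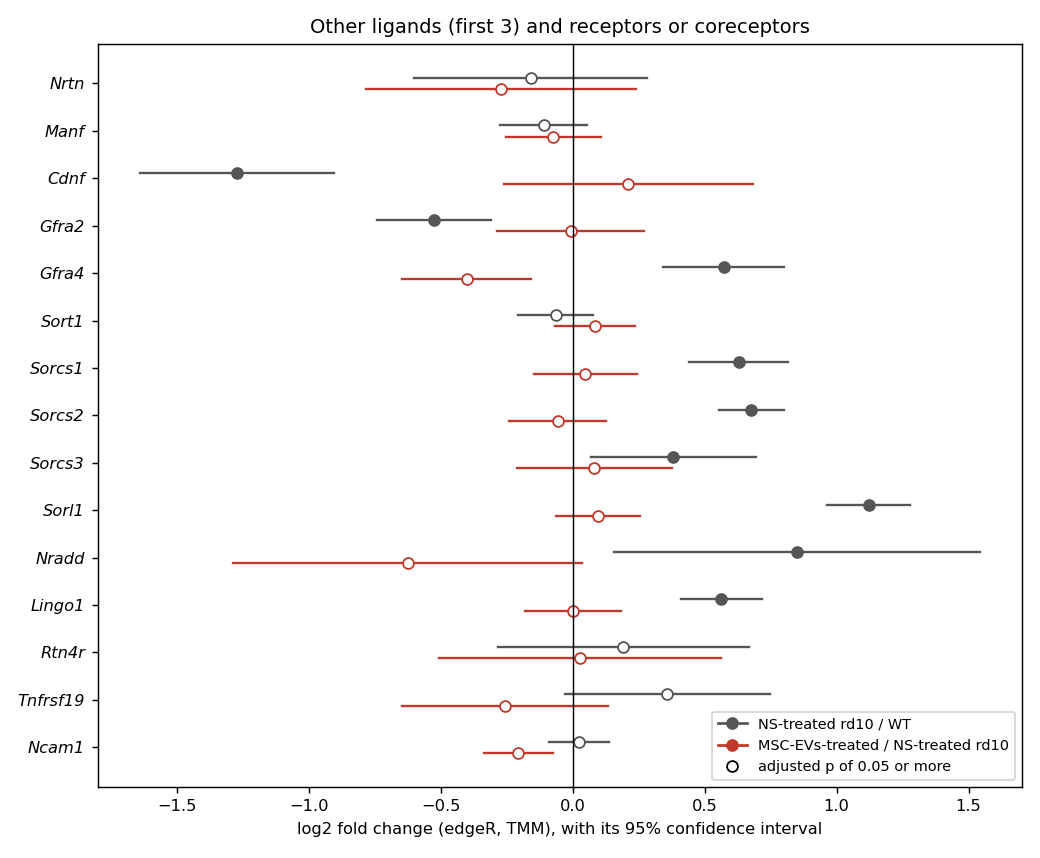
Log2 fold change (x axis) of the 3 other ligands and 12 other receptors or coreceptors tested against WT, for NS-treated rd10 against WT (grey) and MSC-EVs-treated against NS-treated rd10 (red), with 95% confidence intervals and filled circles for adjusted p under 0.05. Sorl1 lies furthest to the right at 1.12 and Cdnf furthest to the left at -1.27, and no red circle is filled.

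Further along the pathways, the largest rises in NS-treated rd10 were those of A2m, a protease inhibitor that binds neurotrophins (log2 fold change 4.10 ± 0.137), Egr2, an immediate early gene (3.63 ± 0.296), and Plat, which encodes the tissue plasminogen activator that opens the way to proneurotrophin cleavage (2.44 ± 0.0925). Egr2 was low in WT, at 0.374 CPM, and a pseudocount of 1 on FPKM shrank its log2 difference to 1.22. Dusp4, an ERK phosphatase (-0.73 ± 0.0913), Spry2, a feedback inhibitor of receptor kinases (-0.61 ± 0.0672), and Sh2b1, a Trk adaptor (-0.55 ± 0.0665), fell the most. The list of genes induced by BDNF or GDNF had 9 of 16 higher and 1 lower, the list of Trk and Ret adaptors and kinases 22 of 55 higher and 12 lower, and the p75NTR adaptors and effectors 15 of 23 higher and 1 lower. Among ligand processing genes 9 of 12 were higher and 2 lower, and among negative regulators 9 of 17 were higher and 3 lower. Of all genes 31.2% were higher and 30.1% lower, which lies closest to the 40% and 21.8% of the adaptors and kinases. With MSC-EVs, the 3 genes that rose against NS were Shc3, a neuronal adaptor of Trk receptors (0.99 ± 0.186, adjusted p = 0.0441), Ptpn1, a tyrosine phosphatase (0.55 ± 0.0808, adjusted p = 0.0252), and Cbl, a ubiquitin ligase that acts on Ret and Trk receptors (0.51 ± 0.0808, adjusted p = 0.0261). Leaving out replicate 2 or 3 of the NS-treated group, or replicate 1 of the MSC-EVs-treated group, left 0 pathway genes past the threshold. With the level of Y-linked genes as a covariate Ptpn1 (0.40, adjusted p = 0.0714) and Cbl (0.44, adjusted p = 0.0906) did not pass, and Shc3 did not on either FPKM scale (limma, adjusted p = 0.0543 and 0.0544).

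Across the 9 libraries, the members that rose also moved together, which the shared difference between WT and rd10 fixes in large part. Pearson's r of the log2 CPM was 0.97 between Ntrk2 and Ret, 0.96 between Gfra1 and Ret and 0.96 between Ntf3 and Ret. Among the members that rose, the lowest r was 0.646, between Bdnf and Gfra1, and the next was 0.724, between Ntrk3 and Gfra1. Ngfr had r of -0.01 with Ret and 0.01 with Ntrk2. Of 14907 other genes, those most alike Ret were Arl4c, Capn2 and Phldb1 (r of 0.992 to 0.993), and those most alike Ntf3 were Plin4, Gcnt1 and Pon3 (0.988 to 0.992). Ntrk2 was most like Snx33, Ctnna2 and Cntnap1 (0.987 to 0.991), Gfra1 most like Prkar1a, Adap1 and Stac2 (0.987 to 0.99), and Ntrk3 most like Mast4, Tent5a and Trpm4 (0.98 to 0.986). For Bdnf they were Dgkk, Traf1 and Atn1 (0.947 to 0.968), for Gdnf Prr13 and Pou4f3 (both 0.927) and for Ngfr Pus7, Rad54l2 and Tnfrsf18 (0.837 to 0.914). These values describe 9 points in 2 clusters, and no p is given.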

How the data were processed

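RNA-seq was measured in 9 retina libraries of 3 groups (3 each). The table that the authors deposited gives, for each library and gene, an FPKM and an estimated count that was not scaled to depth. The submitters' processing notes name fastp, Bowtie2, HISAT2, StringTie 1.3.1 and RSEM. The genome build, annotation and strand setting are not given in the sources used here. Libraries were poly(A)-selected. Estimated counts had decimals in 9.16% to 11.7% of genes and were rounded to whole numbers. Per the deposited values, FPKM is the count divided by transcript length and library total, so it carries no TMM factor. The design had assumed counts, and the test was kept.

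The groups were compared in pairs, with the 6 libraries of a pair in each fit, in edgeR 4.0.16 (R 4.3.3): filterByExpr, TMM, glmQLFit with robust estimation and glmQLFTest. P-values were Benjamini-Hochberg adjusted over all genes tested, and a gene passed with an adjusted p under 0.05. The SE is the log2 fold change divided by the square root of F, and its 95% interval uses the t quantile of the test's degrees of freedom. CPM are TMM-scaled over the 9 libraries. TMM factors were 0.92 to 1.05 and the biological coefficient of variation 7.97%, 12.5% and 10.8% for NS against WT, MSC-EVs against NS and MSC-EVs against WT. DESeq2 1.42.0, limma 3.58.1 on log2(FPKM + 1) and log2(FPKM + 0.1), other scalings and filters and leaving out each library were alternatives. The fit was also run on data simulated with a single dispersion for all genes and both groups, and no conclusion is drawn from that run. No source says that libraries of a group came from separate animals, so p-values measure the spread between these libraries. Depth gave 10 to 125 summed counts per group for Ntf3 and 36 to 68 for Gdnf, and 542 or more for the others. Intervals on counts cover counting error only.

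The 8 members and the lists were chosen with earlier results of these data known. Besides the members, genes named are any tested ligand or receptor of the lists, the 3 largest rises and falls past the threshold in the other pathway lists per comparison, and the 3 genes most correlated with each member; some genes are not reported here. One listed alias, Ngfrap1, matched no row. Positions are from GENCODE M21 and promoters from RefSeq.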

Additional observations from a re-analysis of the deposited data

How the results depend on the processing

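Of 433 recomputed log2 fold changes of members, 423 kept their side of the threshold, 9 no longer passed and 1 newly passed. The sign changed in 22 of the 423, none of which passed in either fit: Ngfr on both FPKM scales in NS against WT, Gdnf in MSC-EVs against WT, and Ntf3, Gdnf, Ntrk3 and Gfra1 in MSC-EVs against NS. The 9 were those of Bdnf (7), Ntrk3 and Gfra1 in NS-treated rd10 against WT, and the 1 was Ngfr, given above except that Bdnf also did not pass with all 9 libraries in 1 fit (0.46, adjusted p = 0.0563) or with the replicate block below. For the other genes named, 1276 of 1334 values kept their side, 51 of them with the opposite sign, 38 no longer passed, 19 newly passed and 1 was reversed: Egr2, at 0.02 between the rd10 groups, was at -1.75 (adjusted p = 0.0409) without both libraries with Y-linked counts. That setting leaves 1 MSC-EVs library, assumed to vary like the other group. Requiring at least 2-fold left 1 member in each comparison with WT. For NS against WT it left 12 of 138 pathway genes, beside 1863 of all 14644 genes tested. For MSC-EVs against WT it left 9 of 138, beside 1784 of all 14623. For MSC-EVs against NS, where 3 pathway genes passed, the number was 14 with DESeq2, 6 with edgeR's exact test, 16 with all 9 libraries in 1 fit, 8 without both libraries with Y-linked counts (1 MSC-EVs library left), 0 at an adjusted p under 0.01, 0 at 2-fold or more and 0 to 8 without 1 library each. The causes were not tested. Over all genes, 172 passed in that comparison, against 930 with DESeq2, 792 with the exact test and 1026 with all 9 libraries, and 0 when replicate 3 of NS or replicate 1 of MSC-EVs was left out, whereas no member passed in that comparison under any alternative run.

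Replicate numbers were not taken to pair the samples, since no source ties a number to a litter or batch. The NS-treated and MSC-EVs-treated mice were littermates by the paper's account, so shared litters between these groups are possible. Correlations of same-numbered deviations were -0.059 to 0.031 for NS and WT and 0.02 to 0.076 for MSC-EVs and WT. For MSC-EVs and NS they were 0.093 to 0.272, against -0.189 to 0.003 between differing numbers. Each sample of these 2 groups thus correlated best with its own number, a hint from the data and not the design. With a replicate block 5, 0 and 6 members and 93, 4 and 84 pathway genes passed in NS against WT, MSC-EVs against NS and MSC-EVs against WT, Bdnf being lost (0.44, adjusted p = 0.0664), and 403 of all genes in place of 172 passed for MSC-EVs against NS. Keeping genes with 10 or more counts in each library left Ntf3 and Gdnf untested against WT. Depth limits Ntf3 in WT and Gdnf throughout.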
